A study of Mus musculus with 35 samples.

Results

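The clustered protocadherins are cell surface cadherins encoded in 3 neighbouring gene clusters on mouse chromosome 18, alpha, beta and gamma. They were followed here in embryonic stem cells (ESCs) that lose *Dnmt1*, the maintenance DNA methyltransferase. The rows whose gene name starts with Pcdha, Pcdhb or Pcdhg were taken from a table of 26127 rows, which gave 24 rows: 2 of the alpha cluster, 21 of the beta cluster and 1 of the gamma cluster. The rule used gene names and no expression value, although earlier results of these data were known when it was set. Total RNA without ribosomal RNA was sequenced on 8 days (0, 1, 3, 6, 9, 11, 17 and 25), in 2 libraries of WT (control) and 2 of *Dnmt1* KO a day, or 3 of each at day 1 (17 per genotype). There was also 1 library of *Dicer* KO cells. All cells are labelled as ESCs of the E14 background, whereas the study's methods describe a C57BL/6 line with loxP sites in *Dnmt1*, in which tamoxifen induced Cre. Whether the controls carry the same loxP alleles is not given in the sources used here. The *Dicer* KO cells were made in that line with CRISPR from single-cell colonies, and *Dicer* is the enzyme that processes small RNA precursors. The cells grew in serum and LIF with or without feeders, and the labels do not say which libraries had feeders. Nothing states that 2 libraries of a group came from separate cultures, so p-values measure the spread between libraries, which may be technical.

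In neurons, each cell uses a few clustered protocadherins out of many, and the proteins act as surface tags by which a neurite recognises branches of its own cell. An alpha or gamma transcript joins 1 of many variable first exons, each with a promoter of its own, to constant exons shared by the whole cluster, whereas a beta gene is a single exon with its own promoter. CTCF and cohesin bring a promoter to distal enhancers. Methylated promoters of these clusters are generally silent, and *Dnmt3b* and *Smchd1* are known to take part in that silencing. The comparison therefore asked how RNA of the clusters in KO stood to that in WT, day by day.

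The values are RPKM, which divides reads by exon length in kilobases and by the mega-reads of a library (24.3 to 72.1). Exons of genes took 20.7% to 22.4% of the reads in 20 libraries (the first pair of day 1 replicates and all of days 0, 3, 6 and 9), and 44.7% to 49.9% in the other 15 (the third replicate of day 1, all of days 11, 17 and 25, and *Dicer* KO). This split was found in the data and is not a grouping of the study. It raises RPKM of any exon in the second set, so levels are compared between KO and WT of one day, and each of these comparisons falls within a set apart from day 1. *Dnmt1* had between 14.1 and 34.8 RPKM in WT and between 2.58 and 8.13 RPKM in KO from day 1 on, without day 6. Its WT level was highest at day 25, with 34.8 and 31.6 RPKM. At day 6 it ran against the labels, with 3.22 and 3.40 RPKM in the libraries labelled WT and 20.2 and 20.4 RPKM in those labelled KO. Day 6 is therefore given as labelled and was left out of means over days. The pluripotent cell markers fixed for the check (*Pou5f1*, *Nanog* and 8 others) summed to between 650 and 1909 RPKM in every WT and KO library.

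The gamma cluster and most of the alpha cluster are each held in 1 row. The row named *Pcdhgc5* (ENSMUSG00000023036.7) spans the gamma cluster on chromosome 18 of NCBIM37, plus strand, from 37833989 to 38001527. The annotation merges 10 transcripts with 10 different first exons into it, with 28980 exon bases in all, so it measures the cluster and not the C5 isoform for which it is named. *Pcdha11* (ENSMUSG00000007440.7, 37089939 to 37347311) likewise merges 10 transcripts with 10 first exons into 24688 exon bases. These lengths are 6.15 and 8.66 times that of the median transcript of the row, so RPKM of both rows understates the level per transcript. *Pcdha3* (37105801 to 37108685, 2439 exon bases) lies inside *Pcdha11* and shares no exon base with it. The beta rows run from 37424652 (*Pcdhb1*) to 37681073 (*Pcdhb22*) and hold 1 gene each, with between 2350 and 7131 exon bases, and 20 of the 21 are a single exon block. The C-type genes *Pcdhac1*, *Pcdhac2*, *Pcdhgc3* and *Pcdhgc4* and the beta gene *Pcdhb20* have no row of their own among those selected and were not analysed here.

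The beta genes are close copies of one another, and the authors discarded reads of low mapping quality. In each beta row, at least 97.5% of exon windows of 100 bases (the read length) occurred once in the chromosome region holding the clusters. Both strands were counted, and the rest of the genome was not searched. Windows of *Pcdha3* (92.2%) and *Pcdha11* (95.8%) were repeated more often. The *Pcdhgc5* row overlaps exons of the antisense gene *Gm16882* over 1647 bases and *Pcdha11* those of the antisense gene *Gm10545* over 2790 bases. The libraries were described as stranded, but whether the counting used strand is not given in the sources used here, so sense and antisense reads over these bases may not be separated.

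Most clustered protocadherin RNA came from the gamma cluster. The *Pcdhgc5* row had between 0.274 and 1.18 RPKM in the 34 WT and KO libraries, with 19187 reads in all, and its mean exceeded that of 57.2% of all rows. The alpha row *Pcdha11* had between 0.00500 and 0.0477 RPKM and 524 reads in all, and its mean ranked at the 30.6th percentile. *Pcdha3* had 6 reads in 34 libraries, never more than 1 in a library. The 21 beta rows together had 769 reads, fewer than the gamma row in 1 KO library of day 1 (1046).

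The beta genes were close to the limit of detection. Of 714 values (21 genes in 34 libraries), 464 were 0 and 63 exceeded 3 reads, the level taken as the floor, which corresponded to between 0.00584 and 0.0525 RPKM depending on gene length and depth. *Pcdhb10* had no read in any of the 34 libraries, and 11 of the 21 genes never exceeded 3 reads. *Pcdhb17* (197 reads), *Pcdhb22* (146) and *Pcdhb14* (74) held 54.2% of the beta reads. Next by mean RPKM came *Pcdhb2* (47 reads) and *Pcdhb18* (61). The highest value of any beta gene was 0.295 RPKM, for *Pcdhb17* in 1 WT library of day 25. Reads had no molecular identifiers, so floors and read intervals cover no more than counting error.

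**Figure D1:**
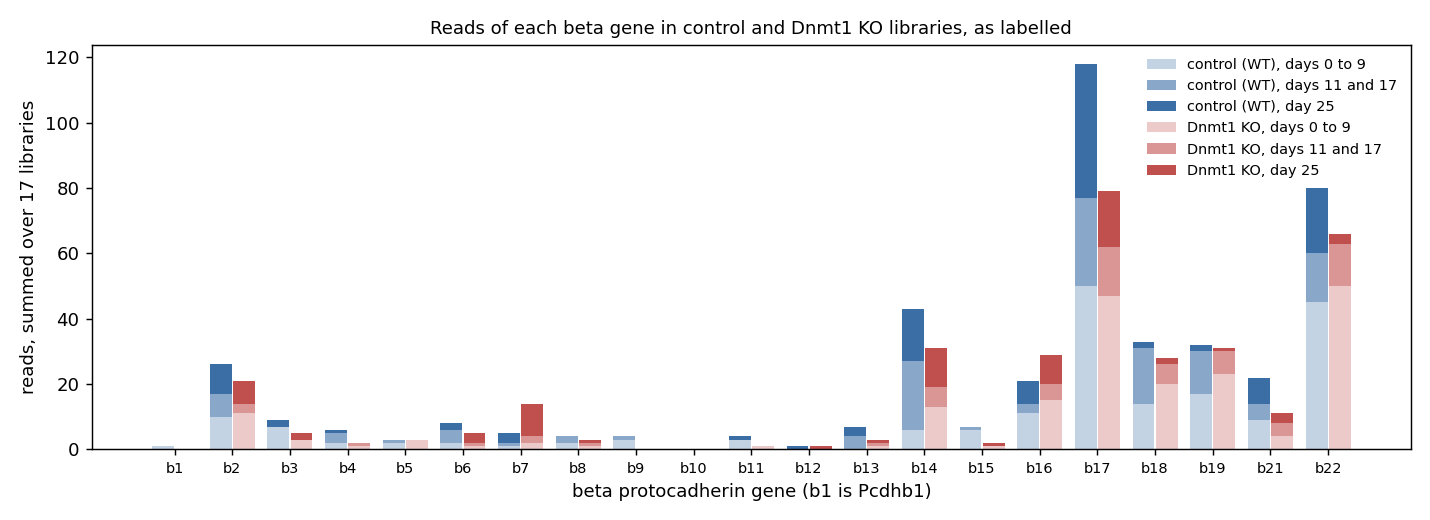
Reads (y axis, summed over 17 libraries) of each of the 21 beta genes (x axis) in WT (blue) and *Dnmt1* KO (red) libraries, shaded by days. *Pcdhb17* and *Pcdhb22* stand highest, with 118 against 79 and 80 against 66 reads, and the genes from *Pcdhb3* to *Pcdhb13* have at most 14 reads in a bar.

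Gamma cluster RNA was called lower in KO than in WT at day 25, and was called at no other day. The *Pcdhgc5* row had 1.18 and 1.07 RPKM in the WT libraries of day 25 and 0.639 and 0.574 RPKM in the KO libraries. All of the KO values lay below the WT values, and the KO mean was 0.540 of the WT mean. On the log2(RPKM + 0.1) scale, which understates changes of low genes, the row was lower in KO than in WT by 0.79 (SE 0.15, limma adjusted p = 0.00013). In reads, 1061 were counted in KO and 1866 in WT, a ratio per mega-read of 0.538 (95% exact interval 0.499 to 0.580).

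The background of this call is wide. At day 25, 22.6% of the 17480 genes tested were called lower in KO and 31.3% higher (3952 and 5475 genes). The *Pcdhgc5* row, *Pcdhb17* and *Pcdhb22* were the members that passed the filter on low values, 3 of 24. *Pcdhb17* met it through 4 WT and 2 KO libraries and was called lower too. *Pcdhb22* met it through 2 WT libraries alone, 1 of day 17 and 1 of day 25, so the filter favoured a lower KO value and its call is not counted as support. A count model (voom) on reads recovered from the RPKM called 4884 genes lower and 4102 higher at day 25. Without a term for the library set, 1919 genes were called lower and 1737 higher, and the *Pcdhgc5* row was no longer called (adjusted p = 0.0567).

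Before day 25, no difference in gamma cluster RNA passed the test. At day 0 it had 0.330 and 0.347 RPKM in WT and 0.274 and 0.305 RPKM in KO. At day 3 the WT libraries had 0.357 and 0.321 RPKM and the KO libraries 0.426 and 0.353 RPKM. The groups overlapped at day 3 and not at day 0, and neither difference passed the test (adjusted p = 0.649 and 1). At day 9, WT had 0.343 and 0.392 RPKM and KO 0.345 and 0.385 RPKM, with a log2 difference of -0.01 (SE 0.15). At day 11, WT had 0.880 and 0.908 RPKM and the KO libraries stood on either side of them, at 0.740 and 1.09 RPKM. The KO libraries of day 17 (0.661 and 0.687 RPKM) lay between those of WT (0.634 and 0.795 RPKM).

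At day 1 the third library of each genotype belongs to the set of high exonic share. WT had 0.353, 0.376 and 0.716 RPKM and KO 0.463, 0.382 and 1.04 RPKM. Within each library set the KO values lay above those of WT, with a log2 difference of 0.27 (SE 0.12), which did not pass the test (adjusted p = 0.463). At this day 0.0744% of genes were called in either direction. At day 6 the libraries labelled WT, in which *Dnmt1* RNA was low, had 0.413 and 0.430 RPKM, and those labelled KO 0.324 and 0.342 RPKM. The log2 difference of -0.27 (SE 0.15) did not pass the test either (adjusted p = 0.230), where 20% of genes were called.

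Divided by the exonic share of its library, the gamma row had group means between 1.31 and 2.01 from day 0 to day 17. At day 9 they were 1.71 in WT and 1.68 in KO, and at day 11 they were 1.91 and 1.95. WT rose to 2.50 ± 0.198 at day 25 (SD, n = 2) and KO stood at 1.22 ± 0.0836 (SD, n = 2). The mean log2 difference over days 3, 9, 11, 17 and 25 was -0.14 (SE 0.07) and did not pass the test (adjusted p = 0.0847), where 51.2% of genes were called. Centring each library on its median turned the split of all genes over these days from 6016 higher and 2937 lower to 3766 higher and 5203 lower, and with it the row was called (log2 difference -0.25, adjusted p = 0.00146). Centring shifted the all-gene median most at day 17, from 0.12 to -0.13.

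**Figure D2:**
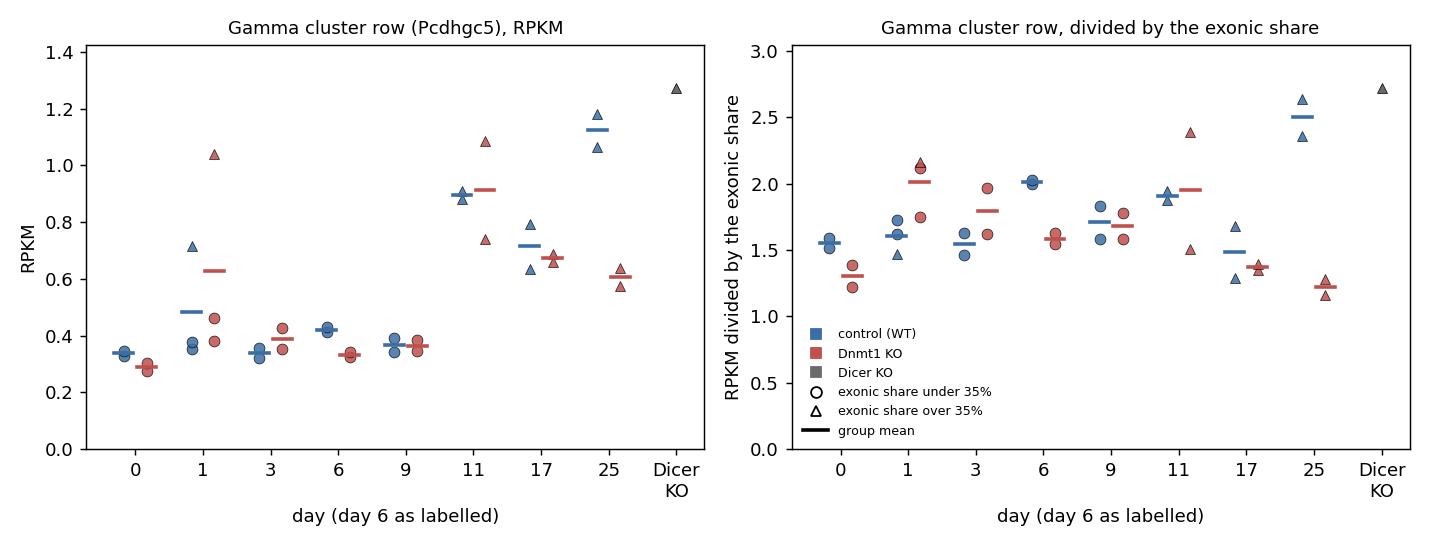
RPKM of the gamma cluster row by day and genotype (left) and the same divided by the library's exonic share (right). Points are libraries, bars are group means, circles and triangles mark libraries with an exonic share under and over 35%. At day 25 the WT libraries stand at 1.18 and 1.07 RPKM and the KO libraries at 0.639 and 0.574 RPKM, and the step between days 9 and 11 is smaller on the right than on the left.

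The antisense gene *Gm16882*, which shares exon bases with the gamma row, was also lower in KO at day 25. There it had between 0.751 and 0.789 RPKM in WT and between 0.335 and 0.405 RPKM in KO (269 and 137 reads). At day 9, where the gamma row had a log2 difference of -0.01, it was higher in KO, with 0.164 and 0.175 RPKM in WT and 0.231 and 0.239 RPKM in KO. Its part in the level of the gamma row was not tested.

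Among the beta genes, *Pcdhb17* had 0.295 and 0.135 RPKM in WT and 0.0617 and 0.110 RPKM in KO at day 25 (29, 12, 6 and 11 reads). Both KO libraries lay below both WT libraries, and the call (log2 difference -0.73, SE 0.22, adjusted p = 0.00758) was lost without WT replicate 1 (adjusted p = 0.227) or KO replicate 1 (0.0958). *Pcdhb22* had 0.0977 and 0.132 RPKM in WT and 0.0219 and 0.0106 RPKM in KO (9, 11, 2 and 1 reads). The ratio per mega-read was 0.142 (95% exact interval 0.0270 to 0.479), and the log2 difference was -0.88 (SE 0.30). Its adjusted p of 0.0174 is bound to the filter met by WT libraries alone. With no filter on low values it was 0.0188, and it rose above 0.05 without WT replicate 2 (0.0988) or KO replicate 2 (0.0832) and with a replicate block (0.0594). With a pseudocount of 0.01 in place of 0.1, neither gene was called (adjusted p = 0.0940 and 0.0768). *Pcdhb17* was also not called with only the groups compared in the fit (0.165) or without the library-set term (0.0659).

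None of the 3 members tested, of 24 rows, was called at days 0 to 17, and this says nothing of the rows not tested. The share of genes called rose from 0% at day 0 to 7.8% at day 3, 20.6% at day 9, 29.7% at day 11 and 35.2% at day 17. *Pcdhb17* had 3 and 5 reads in WT and none in KO at day 11. That difference was called with a pseudocount of 0.01 (adjusted p = 0.00900) and with voom (0.00577), and not with the pseudocount of 0.1 (0.155). At day 17 the gene had 10 and 9 reads in WT and 5 and 10 in KO. *Pcdhb22* had 11 reads in 1 WT library of day 17 and none in the other, and 9 and 0 in KO, so the spread within a genotype was as wide as any difference between them.

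**Figure D3:**
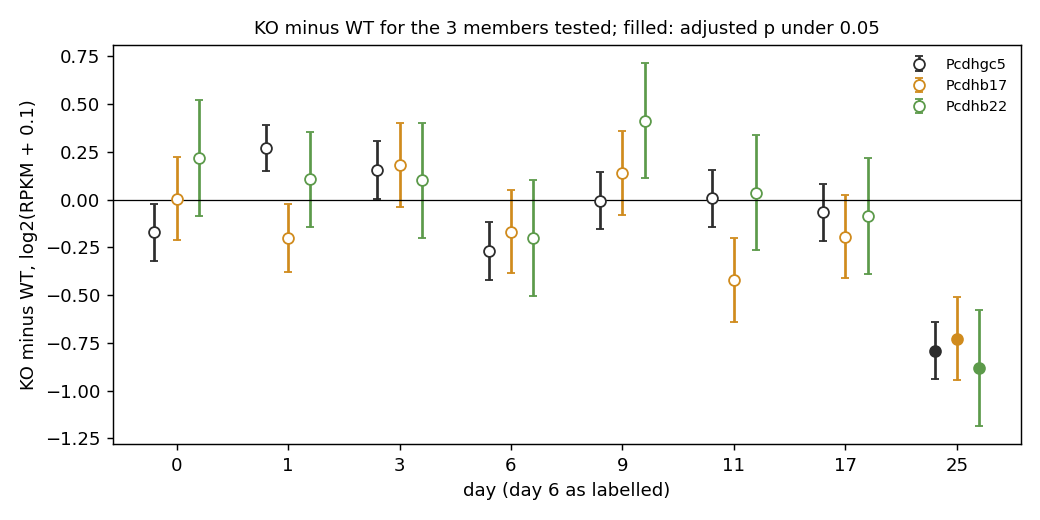
KO minus WT (y axis, log2(RPKM + 0.1), bars are standard errors) at each day (x axis) for the 3 members tested. Filled points passed an adjusted p of 0.05, which holds at day 25, where the values are -0.79 for *Pcdhgc5*, -0.73 for *Pcdhb17* and -0.88 for *Pcdhb22*, which passed the filter on low values through WT libraries alone.

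Summed over the 21 beta rows, RNA was higher in KO than in WT at days 3 and 9 and lower from day 11 on. At day 9 the sum was 0.0964 and 0.0668 RPKM in WT and 0.201 and 0.138 RPKM in KO. At days 3 and 9 together, KO had 83 reads and WT 57, a ratio per mega-read of 1.87 (95% exact interval 1.32 to 2.67). At days 11, 17 and 25 together, KO had 138 and WT 243 reads, a ratio of 0.580 (0.467 to 0.718). These intervals leave out the spread between libraries, and no test was made on sums over the members.

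At day 25 the lower beta sum of KO lay mainly in *Pcdhb17* and *Pcdhb22*. The full sum was 0.684 and 0.508 RPKM in WT and 0.359 and 0.328 RPKM in KO (118 and 73 reads). Without these genes, a pair taken out after their values were seen, it was 0.241 and 0.291 RPKM in WT and 0.208 and 0.275 RPKM in KO. These ranges overlapped, and the reads of the other 19 genes were 57 in WT and 53 in KO. *Pcdhb14*, for example, had 9 and 7 reads in WT and 7 and 5 in KO at day 25, and *Pcdhb2* had 9 reads in WT and 7 in KO.

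At day 17 the other beta genes also stood lower in KO. The sum was 0.441 and 0.347 RPKM in WT and 0.165 and 0.299 RPKM in KO. Without *Pcdhb17* and *Pcdhb22* it had 55 reads in WT and 27 in KO, a ratio per mega-read of 0.474 (95% exact interval 0.288 to 0.765). *Pcdhb14* alone had 18 reads in WT and 6 in KO, and *Pcdhb18* had 11 and 6. At day 11 the sum was 0.0936 and 0.191 RPKM in WT and 0.0727 and 0.0309 RPKM in KO, with 40 and 14 reads. At day 0, when *Dnmt1* RNA had a log2 difference of 0.02, the KO sums already lay above those of WT, at 0.139 and 0.163 against 0.137 and 0.0899 RPKM.

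One beta gene ran the other way at day 25. *Pcdhb7* had 10 reads in KO and 3 in WT, a ratio per mega-read of 3.15 (95% exact interval 0.812 to 17.8). It did not pass the filter on low values. With no filter it was called higher (log2 difference 0.38, adjusted p = 0.000935). This gene was singled out after its values were seen. Over all days it had 14 reads in KO and 5 in WT.

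Alpha cluster RNA, nearly all of it from the *Pcdha11* row, had its largest ratio at day 9. *Pcdha11* had 0.00687 and 0.00500 RPKM in WT and 0.0150 and 0.0186 RPKM in KO (12, 3, 16 and 16 reads), a ratio of 2.60 per mega-read (95% exact interval 1.37 to 5.16). At day 17 it had 0.0287 and 0.0177 RPKM in WT and 0.0406 and 0.0477 RPKM in KO, with 34 and 67 reads. At day 25 the order was turned, with 0.0432 and 0.0463 RPKM in WT and 0.0286 and 0.0330 RPKM in KO, and a ratio of 0.691 (0.462 to 1.03). The groups did not overlap at these 3 days, nor at day 3, with KO above WT, nor at day 11, with KO below WT. How often groups of 2 libraries do not overlap over all rows was not counted, so this describes the values only. No value reached 0.1 RPKM, so the row was outside the test, and with no filter it was called higher at day 17 (log2 difference 0.23, adjusted p = 0.00575).

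**Figure D4:**
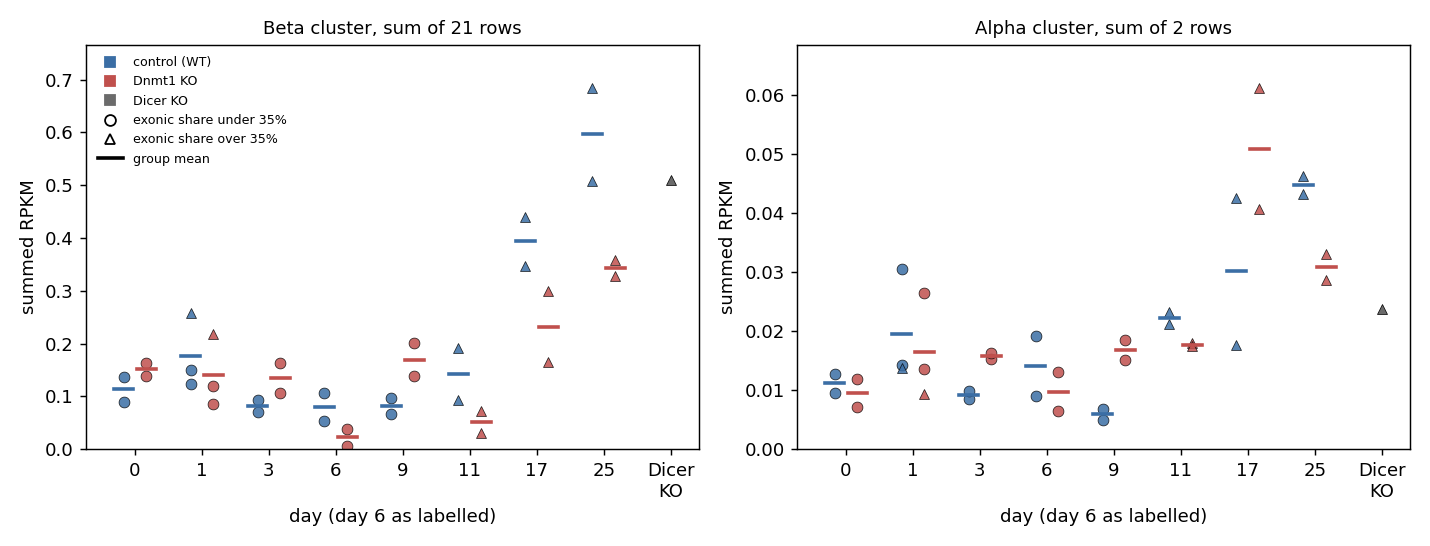
Summed RPKM of the 21 beta rows (left) and the 2 alpha rows (right) by day and genotype, with points, bars and symbols as in the plot of the gamma row. Beta sums of KO lie above WT at days 0, 3 and 9 and below it at days 11, 17 and 25, and alpha sums of KO lie above WT at days 3 and 9 and below it at days 11 and 25.

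Over days 3, 9, 11, 17 and 25, the mean log2 ratio of KO to WT sums was 0.44 for alpha, -0.25 for beta and -0.15 for gamma. The standard deviations of these means that the spread between libraries gives were 0.22, 0.31 and 0.11. The days went in different directions within alpha and beta, so a mean over days describes neither.

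The KO effect of late days (11, 17 and 25) against early days (3 and 9) was tested within the same fit. For *Pcdhb17* it was 0.16 early and -0.45 late, a difference of -0.61 (SE 0.20, limma adjusted p = 0.0442), where 3.81% of genes were called in this direction. The call held without 6 of the 20 libraries that enter it and was lost without any of the other 14 (adjusted p between 0.0503 and 0.125). The 6 were 1 KO library of day 3, 1 WT library of day 9, 1 KO library each of days 11 and 17, and replicate 2 of both genotypes at day 25. For the *Pcdhgc5* row the difference of -0.36 (SE 0.14) did not pass (adjusted p = 0.0826), nor did that of -0.57 (SE 0.28) for *Pcdhb22* (0.180). Early and late days lie in different library sets, although each KO effect was taken within a set.

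Markers of other cells also moved between the groups, and in bulk RNA fewer cells of a type cannot be told apart from less RNA per cell. Over all 17480 genes tested at day 9, 2304 were called higher and 1290 lower. The 13 fibroblast markers, chosen because feeders may be present, summed to 19.97 and 22.4 RPKM in WT and 41.8 and 47.7 RPKM in KO at day 9, and 7 of the 12 tested were called higher (*Acta2*, *Col3a1*, *Pdgfra*, *Col5a1*, *Fbln2*, *Col1a2* and *Postn*). At day 3 the sums were between 19.1 and 20.9 RPKM in WT and between 35.5 and 36.2 RPKM in KO. At day 6 the libraries labelled WT had between 22.1 and 27.9 RPKM and those labelled KO between 12.1 and 13.7 RPKM, and beta reads were 33 and 4, a ratio of KO to WT as labelled of 0.246 per mega-read (95% exact interval 0.0634 to 0.692). The fibroblast sum and the beta sum were higher in the same genotype at days 3 and 9, and higher in the libraries with low *Dnmt1* at day 6. By group means, both sums were also higher in KO at day 0 and lower in KO at days 11 and 25. At days 1 and 17 they ran in opposite directions, with a higher fibroblast mean and a lower beta mean in KO. The fibroblast sum at day 17 was 1.96 and 2.02 RPKM in WT and 12.9 RPKM in both KO libraries. The alpha mean was also higher in KO at day 17. The 6 primitive endoderm markers, of which *Pdgfra* stands in both lists, summed to between 2.46 and 2.51 RPKM in WT and between 4.94 and 5.21 RPKM in KO at day 9, with 5 of 6 called higher (*Foxa2*, *Pdgfra*, *Gata6*, *Sox17* and *Gata4*). The part of these cells in the beta and alpha values was not tested.

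At day 25 the fibroblast sum was between 2.89 and 3.29 RPKM in WT and between 2.70 and 3.02 RPKM in KO. Decorin (*Dcn*) was listed at 0 in both WT libraries, and of the 12 markers tested 1 was called higher (*Thy1*) and 3 lower (*Col1a1*, *Pdgfra* and *Pdgfrb*). The 10 neural markers in the table summed to between 35.9 and 38.1 RPKM in WT and between 72.1 and 76.4 RPKM in KO. *Tubb3*, a neuronal tubulin, was higher (log2 difference 1.84) together with *Stmn2* and *Pax6*, while *Elavl3* and the transcription factor *Neurod1* (-1.76) were lower, 3 and 2 of 7 tested. Pluripotent cell markers summed to between 973 and 1002 RPKM in WT and between 1279 and 1292 RPKM in KO, with 7 of 10 called higher. Over all genes tested at this day, 31.3% were called higher and 22.6% lower. The part of these cell types in the lower gamma level was not tested.

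Other families of the cadherin superfamily gave a second view of day 25, where 22.6% of all genes tested were called lower and 31.3% higher. Of the 12 protocadherins outside the clusters, 6 were tested, and 3 were called lower and none higher: *Pcdh1* (-2.14, SE 0.32), which lies beside the gamma cluster, *Pcdh17* (-0.95, SE 0.16) and *Pcdh18* (-0.72, SE 0.20). Of the 7 other large cadherins tested, 5 were lower and none higher: *Celsr1* (-2.25), *Fat1* (-2.16), *Celsr2* (-2.05), *Celsr3* (-1.38) and *Dchs1* (-0.99). Celsr proteins act in planar cell polarity and *Fat1* and *Dchs1* belong to the family of giant cadherins. Of the 7 classical cadherins, E-cadherin (*Cdh1*, -0.92), N-cadherin (*Cdh2*, -0.81) and *Cdh4* (-0.61) were lower and none was higher. The medians of these lists were -0.53, -1.38 and -0.27, beside 0.08 over all genes tested. The WT level of each list rose between days 17 and 25. Mean summed RPKM of the other large cadherins went from 11.9 to 46.3 in WT and from 12.7 to 10.2 in KO. For the classical cadherins it went from 29.9 to 58.6 in WT and from 30.9 to 32.4 in KO. For protocadherins outside the clusters it went from 0.842 to 1.91 in WT and from 0.859 to 0.560 in KO.

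At day 9, where 20.6% of all genes tested were called, the same families went in other directions. *Pcdh7* (0.94, SE 0.20) and *Pcdh19* (0.74, SE 0.20) were called higher among the protocadherins outside the clusters. *Cdh11* (1.51), *Cdh4* (1.08) and *Cdh5* (0.86), the cadherin of endothelial junctions, were higher and *Cdh1* (-0.47) was lower. Among the large cadherins *Celsr3* (-0.97) was lower. *Cdh11* is known as a cadherin of mesenchymal cells. The fibroblast sum was higher in KO at days 3, 9 and 17, and its part in these cadherin values was not tested.

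**Figure D5:**
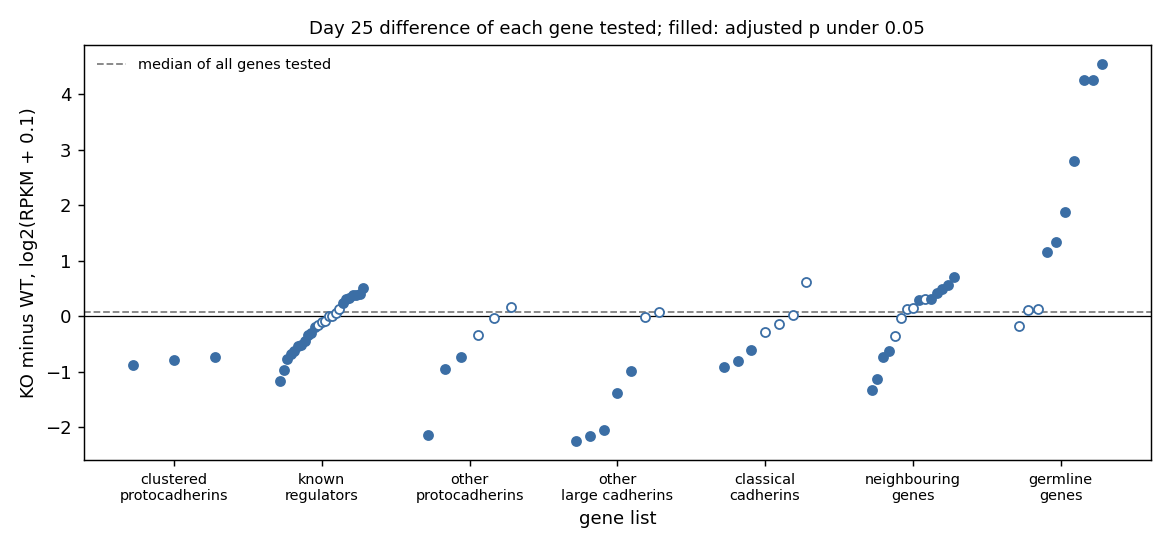
KO minus WT at day 25 (y axis, log2(RPKM + 0.1)) of each gene tested in 7 lists (x axis). Filled points passed an adjusted p of 0.05, and the dashed line is the median of all genes tested, 0.08. The 3 clustered protocadherins lie between -0.88 and -0.73, and the lowest of them, *Pcdhb22*, passed the filter on low values through WT libraries alone. Of the 10 germline genes, 7 are filled and above 1.

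The known regulators of the clusters were all detected. Of 25 tested at day 25, 11 were lower and 7 higher, where 22.6% of all genes were lower and 31.3% higher. CTCF (*Ctcf*, -0.34, SE 0.10) and the cohesin loader *Nipbl* (-0.45, SE 0.13) were lower, while the cohesin subunits *Stag2* (0.51, SE 0.09) and *Stag1* (0.41) and the cohesin release factors *Wapal* (0.39) and *Pds5a* (0.24) were higher. *Rad21*, *Smc1a* and *Smc3* had differences between 0.01 and 0.13, and none passed the test. Of the methylation machinery, the de novo enzyme *Dnmt3b* (-1.17, SE 0.16) and the methylcytosine oxidase *Tet1* (-0.97, SE 0.17) were lower, and the cofactor *Dnmt3l* (0.32) and *Uhrf1* (0.33), which guides *Dnmt1* to replicated DNA, were higher. *Smchd1*, a silencer of these clusters, was higher (0.39, SE 0.07). The H3K9 methyltransferases *Setdb1* (-0.54), *Ehmt1* (-0.77) and *Ehmt2* (-0.63), the cofactors *Trim28* (-0.67) and *Wiz* (-0.20) and the repressor *Rest* (-0.52) were lower. The median of the list was -0.10.

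Genes next to the clusters on chromosome 18 did not share one direction. Of 15 neighbours tested at day 25, 6 were higher and 4 lower, beside the same 31.3% and 22.6% of all genes. *Taf7*, which lies between the beta and gamma clusters, was higher in KO by 0.71 (SE 0.09), as were *Ndufa2* (0.56), *Tmco6* (0.50), *Wdr55* (0.42), *Hars* (0.32) and *Hars2* (0.29) on the alpha side. *Slc25a2* (-1.12, SE 0.27), also between the beta and gamma clusters, *Diap1* (-1.33, SE 0.22), *Rell2* (-0.74) and *Arap3* (-0.62) were lower. Of 10 intracellular partners of the protocadherins, 5 were lower, among them the kinase *Ptk2b* (-1.18) with *Wasf1* (-1.40), *Cyfip2* (-1.37), *Cyfip1* (-0.55) and *Ptk2* (-0.36), and *Pdcd10* (0.67), *Abi1* (0.43) and *Abi2* (0.43) were higher.

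Genes known to be silenced by methylation were set beside the clusters. At day 25, 31.3% of all genes tested were called higher and 22.6% lower. Of 10 germline genes, 7 were higher at day 25 and none lower, with a list median of 1.61. *Dazl*, an RNA-binding protein of germ cells, was higher by 4.56 (SE 0.16), *Asz1* by 4.26 and *Rhox13* by 4.25, and *Slc25a31*, *Tex101*, *Taf7l* and *Sycp1* by between 1.16 and 2.80. Of 39 Hox genes, another set of clustered developmental genes, 13 were tested, and at day 25 none was higher and 5 were lower. No clustered protocadherin that was tested, 3 of 24 rows, was called higher at any day. Of these, *Pcdhb22* had passed the filter on low values through WT libraries alone. That none was higher depends on the filter. With no filter, 23 rows were tested, and *Pcdha11* was called higher at day 17 and *Pcdhb7* at day 25. In that fit 4953 and 5817 of 22909 genes were called higher at these days.

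Promoter windows were described from the annotated starts, 250 bases before to 50 after, on NCBIM37. The 21 beta windows held between 2 and 11 CpG dinucleotides (median 5), against a median of 10 over all 26097 rows with a window. Their median GC content was 40%, against 54.3%. Windows of the 11 alpha first exons had a median of 9 and those of the 10 gamma first exons a median of 6.5 CpG. The letters CGCT, the core of a sequence element known from these promoters, were searched on both strands and found in all 21 beta, all 11 alpha and 9 of the 10 gamma windows, and in 66.1% of windows of all rows. Many annotated starts of these genes are starts of the coding sequence, so the windows may miss the promoter itself. No methylation value was analysed here.

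The genes whose pattern was most like each cluster sum over the 34 libraries were found by Pearson's r of log2(RPKM + 0.1) among 15124 genes. For gamma they were *Klf5*, *Gsk3b*, *Cecr2*, *Tead1* and *Mapre2* (r between 0.970 and 0.976). The 2 library sets set part of this likeness, and within the low set of 20 libraries r was between 0.384 and 0.601 and within the high set of 14 between 0.885 and 0.937. For beta they were *Fjx1*, *Ccnd1*, *Cdh2*, *Shc4* and *Rhot2*, with r between 0.739 and 0.855 within the low set and between 0.749 and 0.812 within the high set. For alpha they were *Nnat*, *Plk2*, *Akt1s1*, *Fzd10* and *Igfbp3*, with r of at most 0.842. Their r was between 0.355 and 0.734 within the low set and between 0.624 and 0.820 within the high set. The points share libraries and depth, and these are descriptions.

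The single *Dicer* KO library had no replicate and was set beside the 7 WT libraries of high exonic share. Its gamma row had 1.27 RPKM (951 reads), above the WT range of 0.634 to 1.18 RPKM. *Gm16882*, the antisense gene, had 1.73 RPKM there. The beta sum was 0.510 RPKM (46 reads), inside the WT range of 0.0936 to 0.684 RPKM, while *Pcdhb22* (0.228 RPKM, 18 reads) and *Pcdhb16* (0.0515 RPKM, 7 reads) lay above their WT ranges, which ended at 0.132 and 0.0420 RPKM. *Pcdhb17* had 0.142 RPKM (12 reads), and 12 of the 21 beta genes had no read. *Pcdha11* had 5 reads (0.00786 RPKM), below the lowest WT value of 0.0138 RPKM. The fibroblast sum was 185 RPKM in this library, against at most 4.31 RPKM in WT of the same set, and its part in these values was not tested.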

How the data were processed

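Per the labels and the study's methods, total RNA of ESCs was depleted of ribosomal RNA and sequenced as stranded pairs of 100 bases. The authors trimmed reads with Trim Galore 0.3.5, aligned them to NCBIM37 with TopHat2 2.0.11, kept reads above a mapping quality limit, and deposited linear RPKM values from SeqMonk. The methods name log2 RPM, and the authors called genes with DESeq2 on counts not used here.

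The members, lists and tests were chosen with earlier results of these data known. Exon lengths and positions came from the GENCODE vM1 annotation of NCBIM37, which matched 99.9% of rows. Multiplied by exon length, at least 99.5% of values under 20 reads in each library were whole reads within 0.1, which gave depths. Genes above 0.1 RPKM in at least 2 of the 34 WT and KO libraries (17480) were fitted with limma 3.58.1 in R 4.3.3 on log2(RPKM + 0.1), with group means, a term for library set (exonic share above or below 35%) and eBayes with a trend. Benjamini-Hochberg adjusted p-values below 0.05 were called. Cluster sums and the *Dicer* KO library were described without a test. Read ratios carry 95% exact (Clopper-Pearson) intervals. The fit was tested on simulated data, with log2 differences of 1 or 2 set in 100 genes each. At day 9 it recovered 42% and 84% of them, and 4.55% of calls were false. In the mean over 5 days it recovered 81% and 95%, and 6.88% of calls were false. A difference of 1 at a single day was thus often missed. Alternatives were other pseudocounts, filters, scalings and designs, voom, and leaving out each library. Same-numbered libraries of a day deviated together with r between -0.05 and 0.14 outside day 1, so replicate numbers were not taken as pairs. Named were, in each cluster, the 5 rows with the highest mean RPKM and every member called, and called genes of the other lists, of which some are not reported here. Tables and figures were made in Python 3.11.15 (pandas 2.3.3, numpy 2.4.6, matplotlib 3.10.9) and intervals with scipy 1.17.1.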

Additional observations from a re-analysis of the deposited data

Results flagged for a closer look

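The KO effect on *Pcdhb17* differed between late days (11, 17 and 25) and early days (3 and 9), by -0.61 on the log2(RPKM + 0.1) scale, which the test of the difference itself called (limma adjusted p = 0.0442). The gene had 14 reads in KO and 8 in WT at days 3 and 9, and 32 in KO and 68 in WT at days 11, 17 and 25. Over the alternatives that could test it, the adjusted p ran from 0.0156 to 0.350. No group had 4 libraries, so single libraries were not screened for outliers.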

How the results depend on the processing

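At day 25, 3 members were below the threshold and lower, one of them *Pcdhb22*, which met the filter through WT libraries alone. The number was 1 with a pseudocount of 0.01, with a filter of 1 RPKM (where 1 was tested) and without the library-set term. No filter, with 23 members tested, gave 4 lower and 1 higher at day 25, where 4171 of 22909 genes were lower and 5817 higher. At day 17 it gave 1 higher and 1 lower, where 4953 of these genes were higher and 1640 lower. At day 11, 1 was called lower with a pseudocount of 0.01 and with voom, against 0. Over the 5 days, 1 was called lower with a pseudocount of 1, with voom and with day 6 included as labelled, and 2 with centred libraries, against 0. Centred libraries had 5203 of 17480 genes lower over these days. For late minus early, the 1 call became 0 with a pseudocount of 1, a filter of 1 RPKM, no library-set term, only the groups compared or a replicate block, and 2 with centred libraries or voom. Without 1 library each, 2 members were lower at day 25, 0 to 1 over the 5 days and 0 to 2 for late minus early.

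The *Pcdhgc5* row at day 25 had a log2 difference of -0.79 without the library-set term too, with an adjusted p of 0.0567, and was called under the other 9 alternatives (-1.03 to -0.40) and without any library of day 25 (-0.86 to -0.72). Differences near 0 changed sign: *Pcdhgc5* at day 9 with voom (0.0039) and at day 11 with centred libraries (-0.15) and voom (-0.017), *Pcdhb17* at day 0 with a pseudocount of 0.01 (-0.050) and voom (-0.037), and *Pcdhb22* at day 11 with centred libraries (-0.12). Without 1 library each, *Pcdhgc5* ran from -0.081 to 0.069 at day 9, -0.24 to 0.26 at day 11 and -0.21 to 0.077 at day 17, *Pcdhb17* from -0.18 to 0.19 at day 0, -0.0028 to 0.28 at day 9 and -0.40 to 0.017 at day 17, and *Pcdhb22* from -0.071 to 0.27 at day 3, -0.085 to 0.16 at day 11, -0.66 to 0.49 at day 17 and -0.20 to 0.031 over the 5 days. For the sums over 5 days the same omissions gave 0.34 to 0.59 for alpha, -0.40 to -0.13 for beta and -0.21 to -0.10 for gamma. The replicate block left 2 members lower at day 25 (*Pcdhb22* had an adjusted p of 0.0594). The causes were not tested. Most beta and alpha values rest on a few reads, so differences there were often not detectable at this depth.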
